A study of Homo sapiens with 6 samples.

Results

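CDK1, the kinase that drives cells into mitosis, was described here together with the 3 cyclins that activate it (CCNB1, CCNB2, CCNA2), the CDC25 phosphatases (CDC25A, CDC25B, CDC25C), its inhibitory kinases WEE1 and PKMYT1, and the mitotic entry factor CDCA3. The 10 genes were chosen by name, with earlier results of these data known. Every probe set whose array annotation named one of them alone was used, with the older name CDC2 counted as CDK1. This gave 17 of the 22283 probe sets on the array, and the 17 named 10 of 11963 genes. Expression had been measured with Affymetrix human genome U133A arrays in the human breast cancer line MDA-MB-231. Cells electroporated with siPTHrP, an siRNA against parathyroid hormone-related protein, were compared with cells electroporated with siLuc, a control siRNA named for luciferase, and total RNA was collected after 3 days. Each group held 3 arrays, 1 from each of 3 independent experiments, and siPTHrP RNA was set against siLuc RNA of the same experiment. All values come from 1 cell line, and the transcript targeted by siPTHrP was not analysed here, and the degree of knockdown is therefore unchecked.

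CDK1 has no activity on its own. It works when bound to cyclin A or cyclin B, whose levels build up before mitosis and are then removed by a ubiquitin ligase, the anaphase-promoting complex. Until mitosis, WEE1 and PKMYT1 keep the kinase off by phosphorylating its ATP-binding loop, and CDC25 phosphatases take these phosphates away again. CDCA3, also called Tome-1, is known as an adaptor for the destruction of WEE1. In proliferating cells most of these transcripts are low after division and high before mitosis, so their level in a bulk RNA also reflects how many cells are close to division. In such bulk samples more cells in that phase and more transcript per cell cannot be told apart.

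Signals were MAS5 intensities on a linear scale, and differences are given as siPTHrP minus siLuc on the log2(intensity + 16) scale, where the offset of 16 shrinks differences of dim probe sets. Median signals of the arrays lay between 559 and 887.2, and precision is limited by there being 6 of them. One control array, siLuc of experiment 1, was unlike the others: its rank correlation with the others across probe sets was 0.716 to 0.725, against 0.882 to 0.960 among the other 5. Its 18 spiked hybridisation controls had a geometric mean of 273100, against 10840 to 41430 on the others. Values that differed widely between experiment 1 and the others are therefore given per experiment or also from experiments 2 and 3 alone. MDA-MB-231 markers were bright, with VIM at the 99.8th, AXL at the 98.9th and CD44 at the 97.8th percentile of mean signal, but TGFBI lay at the 32.9th. The 6 luminal or hormone receptor genes lay between the 3.5th percentile (PGR) and the 62.3th (KRT19), 3 T cell genes between the 25.0th and 57.5th, and 3 myeloid genes between the 8.2th and 51.7th. The 3 endothelial genes lay between the 8.4th (CDH5) and 61.1th (PECAM1), and 3 fibroblast collagens between the 38.5th and 83.2th. Of these 18 genes, KRT19 was higher with siPTHrP without overlap (966 to 1713 in siPTHrP cells, 618.3 to 750 in siLuc cells), and PECAM1 was lower without overlap (419 to 791 in siPTHrP cells, 1056 to 2013.0 in siLuc cells). None of the 18 was at 0 on any array. Summed over each list, signals overlapped between the groups: luminal genes had 2562 to 3585 in siPTHrP cells and 2835 to 5847 in siLuc cells, and T cell genes had 1060 to 1352 in siPTHrP cells and 1313 to 2379 in siLuc cells. Myeloid genes had 604 to 1063 in siPTHrP cells and 762 to 2442 in siLuc cells. Endothelial genes summed to 556 to 1391 in siPTHrP cells and 1269 to 3705 in siLuc cells, and collagens to 2856 to 3577 in siPTHrP cells and 3140 to 4344 in siLuc cells. Without the siLuc array of experiment 1 the highest siLuc sums were 2906 for luminal, 1550 for T cell, 1041 for myeloid and 1607 for endothelial genes. Collagen sums in siLuc cells were then 3871 to 4344, all above the siPTHrP sums of 2856 to 3577. MAS5 gives every probe set a signal, so these percentiles do not by themselves show absence. The part of these genes' signal in the results was not tested.

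CDK1 transcript was higher with siPTHrP in all 3 experiments on all 3 of its probe sets, and the B-type cyclins, CDC25B, CDCA3, the brightest probe sets of CDC25C and CCNA2, and the dimmer one of WEE1 were also higher in every experiment. WEE1 on its brightest probe set and PKMYT1 had no common direction. In limma, blocked on experiment, a Benjamini-Hochberg adjusted p under 0.05 was reached by 0 of the 13329 probe sets above the intensity filter, or 0% of those tested, and 1618 had an unadjusted p under 0.05. Of the 17 probe sets, 15 were bright enough to be tested. Among these 15, 8 were higher with siPTHrP at an unadjusted p under 0.05, where 6.77% of all tested probe sets were, and 0 were lower, where 5.36% were. These 8 covered 6 genes: CDK1 with 3 probe sets, CCNB1, CCNB2, CDC25B, CDC25C and CDCA3. CDC25C was counted through 205167_s_at alone, at an unadjusted limma p of 0.04998. That p was 0.05007 with offset 1 and 0.05495 with a robust prior. Without experiments 1, 2 and 3 in turn, the unadjusted limma p of this probe set was 0.0243, 0.1396 and 0.276. CDCA3 was also near the threshold, at an unadjusted limma p of 0.04735, and in the same fits at 0.02523, 0.193 and 0.1909. Higher signal in all 3 experiments was found for 10 of the 15, against 19.1% of all tested probe sets, and lower signal in all 3 for 0, against 19%. All siPTHrP arrays lay above all siLuc arrays for 6 of the 15, against 8.94% of all, and below them for 0, against 9.69%. The median difference of the 15 probe sets was 0.66 (1.58-fold), and that of all tested probe sets was 0.030. Bright probe sets as a whole leaned slightly upward, with a median of 0.090 over the 8886 above the 60th percentile of intensity. Within experiments 1, 2 and 3 the median of the 15 was 0.82, 0.58 and 0.68, against 0.082, -0.037 and -0.017 over all tested probe sets. Probe sets of 1 gene share a transcript and are not independent of each other. Because the genes were chosen with earlier results of these data known, these counts and shares are a description and not a test.

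**Figure D1:**
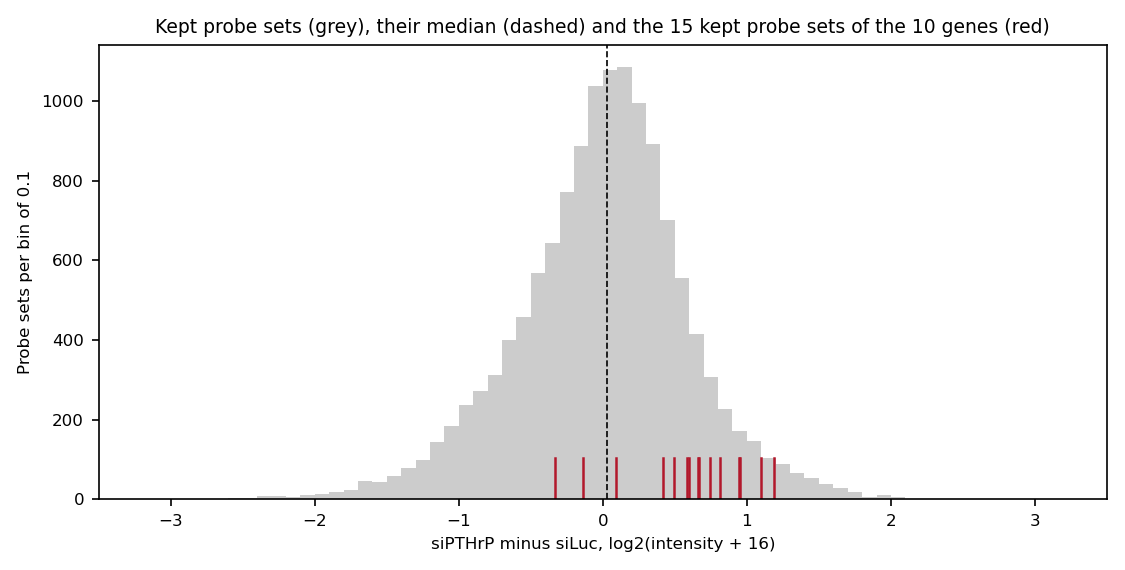
Distribution of the siPTHrP minus siLuc difference, in log2(intensity + 16), over the 13329 tested probe sets (grey bars, bins of 0.1), with their median of 0.030 as a dashed line and the 15 tested probe sets of CDK1, its cyclins and regulators as red ticks. Of the 15 ticks, 13 stand above 0 and 2 below it.

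CDK1 lies on chromosome 10 and was measured by 3 probe sets. On the brightest, 210559_s_at, its signal was 7173, 6352 and 5582 in siPTHrP cells of experiments 1, 2 and 3, and 4041.0, 4239 and 2710 in siLuc cells. The groups did not overlap, and the lowest siPTHrP array lay above the highest siLuc array. The difference was 0.82 on the log2 scale (SE 0.19, limma adjusted p = 0.321), or 1.76-fold with a 95% interval of 1.30 to 2.37. Probe set 203213_at gave 5003, 6080 and 3696 in siPTHrP cells against 2818.2, 2324 and 1431 in siLuc cells. This was the widest gap of the CDK1 probe sets, at 2.28-fold (log2 1.19, SE 0.22, limma adjusted p = 0.287). It ranked 18th of 13329 probe sets by unadjusted p. On 203214_x_at the signals were 5841, 5638 and 4812 in siPTHrP cells and 3951.5, 3490 and 3277 in siLuc cells, a 1.52-fold difference (log2 0.60, SE 0.19, limma adjusted p = 0.347). The 3 probe sets shared the direction but not the size, which lay between 1.52-fold and 2.28-fold. From experiments 2 and 3 alone CDK1 stood at 1.75-fold, 1.54-fold and 2.58-fold on 210559_s_at, 203214_x_at and 203213_at, and 203213_at then had an adjusted p of 0.0113, among 38 of 13329 probe sets past the threshold. Over all alternative analyses the adjusted p of 203213_at ranged from 0.00511 to 0.529.

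**Figure D2:**
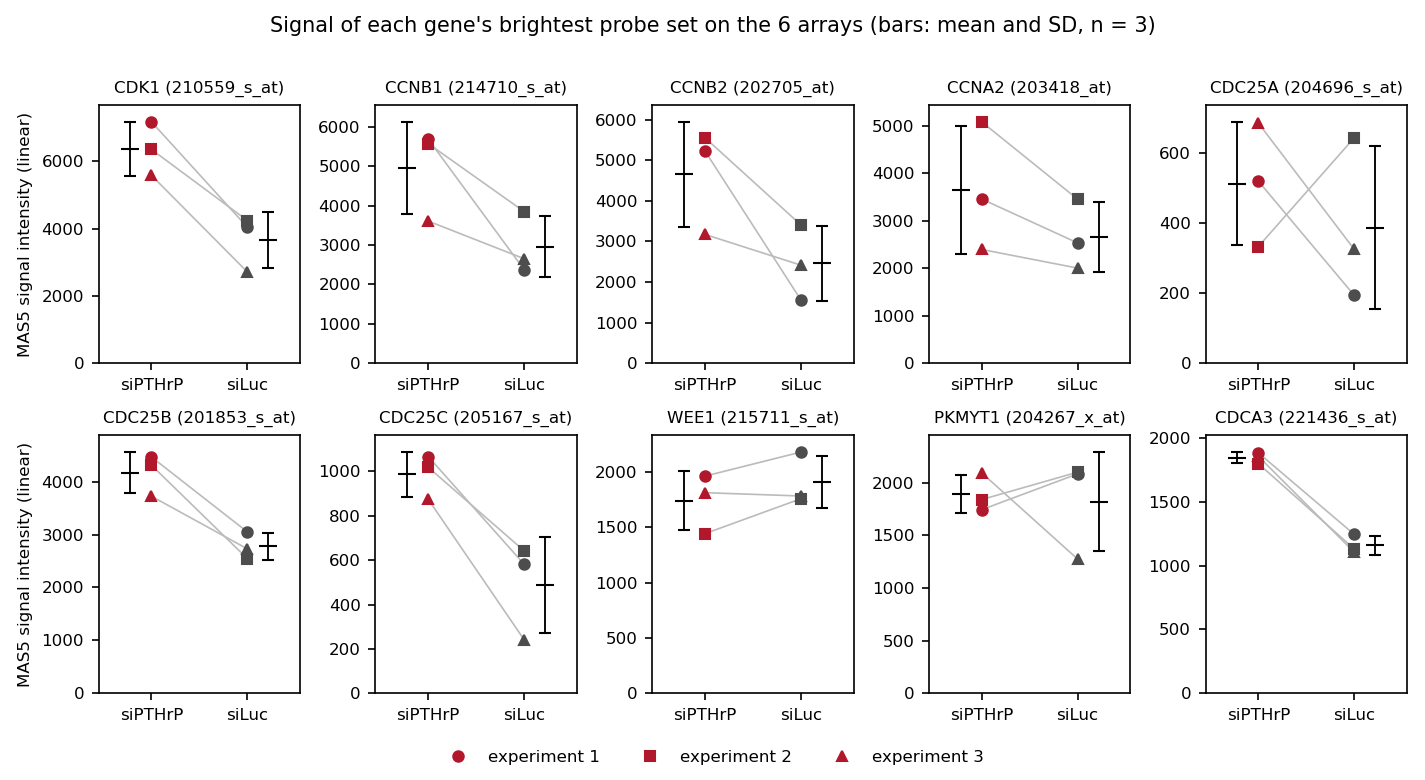
MAS5 signal intensity (linear axis from 0) of the brightest probe set of each gene, siPTHrP on the left (red) and siLuc on the right (grey), with a marker shape per experiment, grey lines joining arrays of 1 experiment, and black bars for the mean and SD (n = 3). CDK1, CDC25B, CDC25C and CDCA3 show no overlap between the groups, whereas WEE1, PKMYT1 and CDC25A cross.

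The B-type cyclins, the partners of CDK1 in mitosis, were higher with siPTHrP in each experiment, by an amount that depended on experiment 1. CCNB1, on chromosome 5, had 5698, 5582 and 3612 in siPTHrP cells of experiments 1, 2 and 3, against 2378.8, 3855 and 2655 in siLuc cells. The groups overlapped, since the siPTHrP array of experiment 3 lay below the siLuc array of experiment 2. CCNB1 stood at 1.67-fold (log2 0.74, SE 0.23, limma adjusted p = 0.345) over all experiments and at 1.40-fold in experiments 2 and 3. CCNB2, on chromosome 15, had 5229, 5555 and 3171 in siPTHrP cells and 1560.7, 3407 and 2414 in siLuc cells. Its lowest value of all 6 was that of the siLuc array that stood apart, and here too the groups overlapped through experiment 3. CCNB2 was 3.33-fold higher in experiment 1, 1.63-fold in experiment 2 and 1.31-fold in experiment 3. Over all experiments CCNB2 stood at 1.92-fold (log2 0.94, SE 0.28, limma adjusted p = 0.332), and from experiments 2 and 3 alone at 1.46-fold (log2 0.55, limma adjusted p = 0.258). Without experiment 3 its difference was 1.22 on the log2 scale, with a limma adjusted p of 0.0249, among 175 of 13329 probe sets past the threshold. That fit kept the siLuc array that stood apart.

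CCNA2, or cyclin A2, binds CDK1 before the B cyclins do and also CDK2 in S phase. On 203418_at it had 3461, 5089 and 2397 in siPTHrP cells and 2535.3, 3458 and 2004 in siLuc cells. The groups overlapped widely, although the siPTHrP array was the higher one in each experiment, and the difference was 1.34-fold (log2 0.42, SE 0.21, limma adjusted p = 0.453, 95% interval 0.959 to 1.87). On its dimmer probe set 213226_at CCNA2 had 2789, 3524 and 1423 in siPTHrP cells and 1508.8, 1523 and 1522 in siLuc cells. Here the siPTHrP arrays of experiments 1 and 2 lay far above all siLuc arrays, and that of experiment 3 lay just below them. The mean difference on this probe set was 0.66 (SE 0.31, limma adjusted p = 0.429). In both cyclin B genes and on both probe sets of cyclin A2, experiment 3 gave the smallest difference.

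The 3 CDC25 phosphatases, which activate CDK1, differed in signal and in how well they could be measured. CDC25B, on chromosome 20, had 4464, 4309 and 3723 in siPTHrP cells and 3049.1, 2545 and 2729 in siLuc cells. The groups did not overlap, and the 3 experiments gave 1.46-fold, 1.69-fold and 1.36-fold. The mean was 1.498-fold (log2 0.58, SE 0.20, limma adjusted p = 0.369), and it was 1.52-fold from experiments 2 and 3. CDC25C, which acts on CDK1 and cyclin B at the onset of mitosis, had 1066, 1018 and 874 in siPTHrP cells and 581.6, 642 and 242 in siLuc cells on its brightest probe set, 205167_s_at. Again every siPTHrP array lay above every siLuc array, at 2.14-fold (log2 1.10, SE 0.49, limma adjusted p = 0.410). The other CDC25C probe sets did not share this. On 217010_s_at the signals were 342, 499 and 610 in siPTHrP cells and 2032.1, 479 and 212 in siLuc cells. The single high value was on the siLuc array that stood apart, and the difference, -0.33 (SE 0.76) over all experiments, was 0.76 from experiments 2 and 3. On 216914_at, which lay below the filter and was not tested, they were 98, 112 and 527 in siPTHrP cells and 1414.7, 134 and 148 in siLuc cells, again with the highest value on that array. CDC25A, which acts earlier in the cycle and is also a target of checkpoint kinases, was dim. On 204696_s_at it had 520, 333 and 686 in siPTHrP cells and 193.6, 644 and 325 in siLuc cells. The groups overlapped and experiment 2 ran against the other experiments, so that the difference of 0.49 had an SE of 0.70 (limma adjusted p = 0.774) and was 0.061 from experiments 2 and 3. The second CDC25A probe set, 204695_at, lay just below the filter with 501, 192 and 877 in siPTHrP cells and 418.2, 279 and 246 in siLuc cells. Experiment 2 ran against the others there too.

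The inhibitory kinases showed no common difference. WEE1, a nuclear kinase that phosphorylates a tyrosine of CDK1, had 1960, 1441 and 1811 in siPTHrP cells and 2177.1, 1756 and 1781 in siLuc cells on its brightest probe set, 215711_s_at. The groups overlapped, and the difference was -0.14 (SE 0.26, limma adjusted p = 0.838), with a 95% interval of 0.603-fold to 1.37-fold. On the other WEE1 probe set, 212533_at, the signals were 1578, 1316 and 923 in siPTHrP cells and 363.6, 1226 and 571 in siLuc cells. This probe set was higher with siPTHrP in each experiment, but by 2.07, 0.10 and 0.68 on the log2 scale, so the mean of 0.95 (SE 0.47, limma adjusted p = 0.445) became 0.39 without experiment 1. The 2 probe sets thus gave different pictures of WEE1, and which of them follows the transcript was not tested. PKMYT1, the membrane-bound relative of WEE1, had 1742, 1838 and 2092 in siPTHrP cells and 2081.2, 2098 and 1275 in siLuc cells. It was lower with siPTHrP in experiments 1 and 2 and higher in experiment 3, with a mean of 0.088 (SE 0.30, limma adjusted p = 0.915) and a 95% interval of 0.669-fold to 1.69-fold.

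CDCA3 varied little within either group. Its signal was 1881, 1797 and 1854 in siPTHrP cells and 1243.3, 1129 and 1104 in siLuc cells. The groups were well separated, at 1.51-fold, 1.58-fold and 1.67-fold in experiments 1, 2 and 3. Because limma shares its error estimate among probe sets of like intensity, the SE of CDCA3 was 0.29 for a mean of 0.66, with a limma adjusted p of 0.410. Within the arrays, the change of CDK1 (210559_s_at) exceeded that of WEE1 (215711_s_at) by 0.98, 0.86 and 1.01 on the log2 scale in experiments 1, 2 and 3. Against the dimmer WEE1 probe set, 212533_at, the same difference was -1.25, 0.48 and 0.36, so it depended on the probe set. CDK1 exceeded PKMYT1 by 1.080, 0.77 and 0.33, whereas CCNB1 minus PKMYT1 was 1.51, 0.72 and -0.27 and CDC25B minus PKMYT1 was 0.80, 0.94 and -0.26. These within-array differences were not tested, since 3 pairs are too few for an exact test to reach the threshold.

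**Figure D3:**
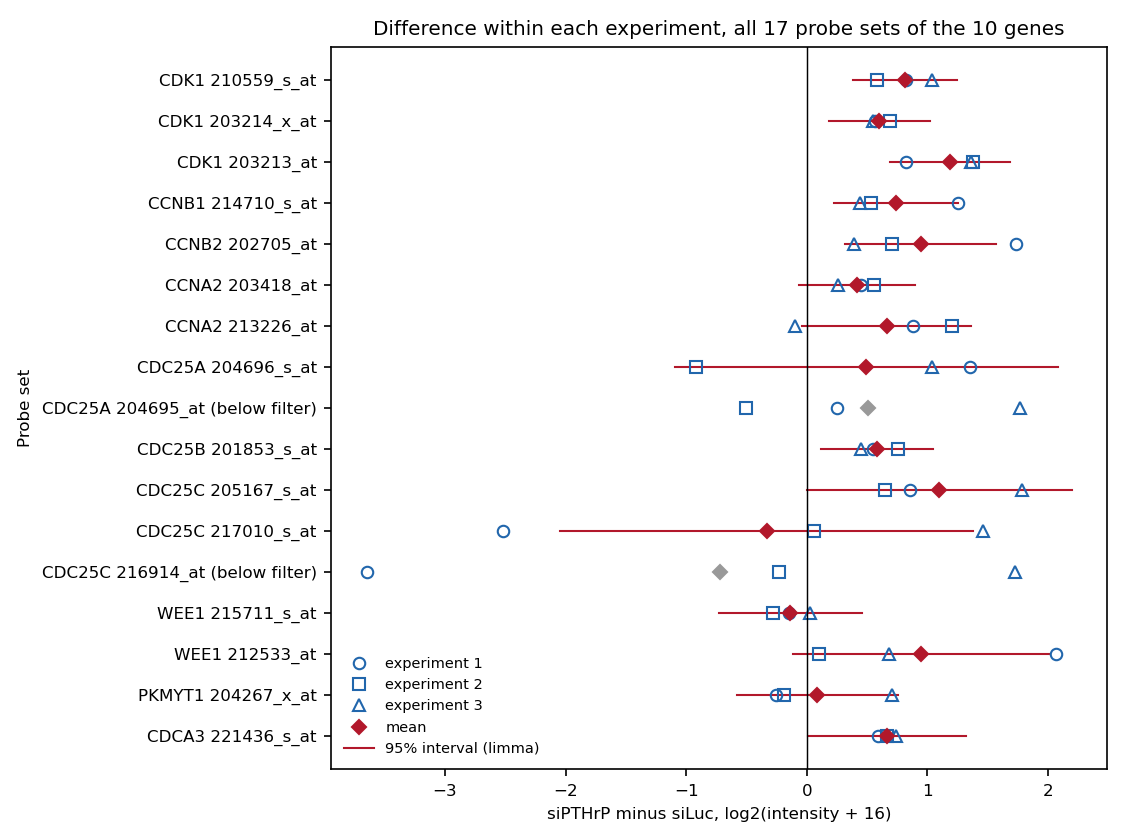
Difference between siPTHrP and siLuc arrays, in log2(intensity + 16), for all 17 probe sets, with open markers for the 3 experiments, a diamond for their mean (grey where the probe set lay below the filter) and a line for the 95% interval from limma. Above 0 in every experiment lie 10 probe sets (the 3 of CDK1, CCNB1, CCNB2, 203418_at of CCNA2, CDC25B, 205167_s_at of CDC25C, 212533_at of WEE1, and CDCA3), and experiment 1 lies at -2.52 and -3.65 for the other CDC25C probe sets.

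Promoter sequences were looked at because CDK1, its cyclins, CDC25B, CDCA3 and the brightest probe set of CDC25C had higher mean signal with siPTHrP. In background terms, promoters of genes expressed before mitosis often carry CCAAT boxes, bound by the factor NF-Y, and a cell cycle homology region, bound by the DREAM and MYBL2 complexes. The RefSeq table (GRCh38.p14) held 15 windows of 250 bases before an annotated start for 8 of the 10 genes. It held none for the inhibitory kinases WEE1 and PKMYT1, so their promoters could not be set beside the others. The motifs searched on both strands were CCAAT and TTTGAA, which do not overlap each other. At least 1 CCAAT was present in 11 of the 15 windows and in all 8 genes with a window, against 32% of 35116 windows of the table and 37% of its genes. The windows without it were starts 1 and 4 of CDC25B and starts 1 and 2 of CDC25C. Windows of a gene can overlap, and the CCAAT at -12 from CDC25C start 3 is the site at -85 from start 4. TTTGAA was present in 4 windows from 3 genes, CDK1, CCNB2 and CDC25C, against 13.3% of windows and 16.1% of genes. Only these exact letters were searched, so a window without TTTGAA is not shown to lack a cell cycle homology region. The last 100 bases before the start are given for the kinase, its cyclins, and the CDC25C and CDCA3 windows, so that the boxes can be read in place. Capitals mark CCAAT, read as ATTGG from the opposite strand, and the TTTGAA match, and each line runs 5′ to 3′ toward the start. For CDK1 the second of its 2 listed starts and for CDC25C the fourth of 4 are shown, chosen after the motifs were seen.
CDK1, chr10:60778378-60778477, plus strand: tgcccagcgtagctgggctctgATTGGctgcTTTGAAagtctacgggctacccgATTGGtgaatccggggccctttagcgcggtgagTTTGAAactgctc
CCNB1, chr5:69167050-69167149, plus strand: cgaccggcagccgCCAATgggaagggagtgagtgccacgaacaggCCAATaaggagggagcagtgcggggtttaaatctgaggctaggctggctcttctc
CCNB2, chr15:59105046-59105145, plus strand: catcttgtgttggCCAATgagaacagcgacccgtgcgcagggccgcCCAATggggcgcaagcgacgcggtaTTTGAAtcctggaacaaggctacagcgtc
CCNA2, chr4:121823884-121823983, minus strand: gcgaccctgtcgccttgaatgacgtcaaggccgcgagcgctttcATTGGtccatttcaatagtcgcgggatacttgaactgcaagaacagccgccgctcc
CDC25C, chr5:138331805-138331904, minus strand: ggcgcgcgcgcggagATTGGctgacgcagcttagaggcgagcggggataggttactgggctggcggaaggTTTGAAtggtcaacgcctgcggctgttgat
CDCA3, chr12:6851287-6851386, minus strand: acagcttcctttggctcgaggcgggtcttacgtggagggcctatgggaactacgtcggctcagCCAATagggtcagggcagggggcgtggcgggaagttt

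CDK1, CCNB1 and CCNB2 each held CCAAT matches 32 or 33 bases apart on the same strand. In CCNB1 the CCAAT matches began at positions -87 and -55 from the start, 32 bases apart. CCNB2 had matches at -120, -87 and -54, 33 apart, and a further one at -244. In CDK1 both matches lay on the opposite strand, at -78 and -46 from the second start, again 32 apart. A pair on the same strand at 32 or 33 bases was present in 3 of the 15 windows and in 0.507% of the 35116 windows. That distance was chosen after these promoters were seen, so the share is a description. TTTGAA lay at -29 in CCNB2, at -30 from the fourth start of CDC25C, and at -69 and -13 from the second start of CDK1. At the first CDK1 start it lay at -161, with CCAAT at -150. CDC25A, whose signal had no common direction, also held CCAAT, at -110 and -58. A match is a description of the letters and does not show binding.

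**Figure D4:**
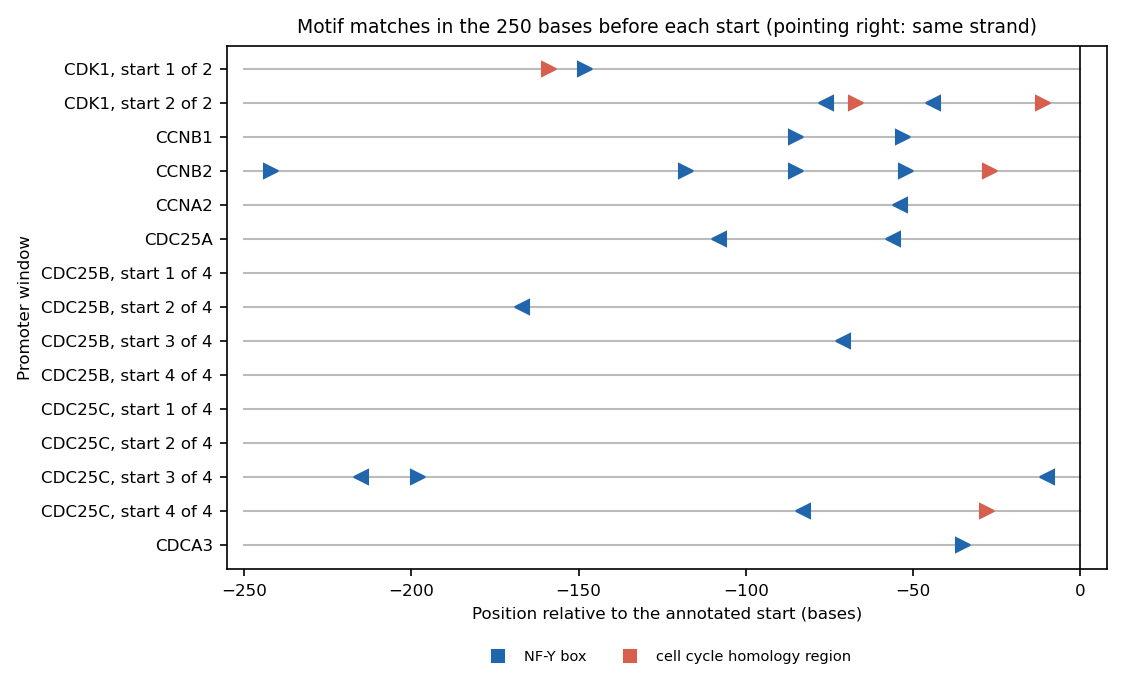
Positions of motif matches in the 250 bases before each annotated start for the 15 RefSeq windows of 8 genes, in bases relative to the start at 0 (blue, CCAAT, the NF-Y box; red, TTTGAA, the core of the cell cycle homology region; pointing right, same strand as the gene). Blue marks 32 or 33 bases apart stand at -78 and -46 in CDK1, at -87 and -55 in CCNB1 and at -120, -87 and -54 in CCNB2. Forms of the cell cycle homology region other than TTTGAA were not searched.

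Other genes that act on CDK1 were followed on lists drawn up by function, each gene by its brightest probe set, and none passed the threshold over all probe sets. Their counts stand against 52.5% of all tested probe sets above 0, and 6.77% higher and 5.36% lower at an unadjusted p under 0.05. The CDK-activating kinase and the CKS proteins had 5 of 5 genes above 0 with a median of 0.55. CKS2, a small protein that docks on CDK1, had 13990 ± 1182 in siPTHrP cells and 9083 ± 811 in siLuc cells (SD, n = 3), with no overlap (log2 0.62, SE 0.16, limma adjusted p = 0.324). CCNH, the cyclin of the CDK-activating kinase, stood at 1.47-fold (1.25-fold from experiments 2 and 3), and MNAT1, its assembly factor, at 1.67-fold. MNAT1 rested on experiment 1 (1.02-fold from experiments 2 and 3), with 2.16 there, -0.057 in experiment 2 and 0.11 in experiment 3 (log2). The list's median was 0.75 in experiment 1 and 0.13 and 0.11 in experiments 2 and 3.

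Kinases and phosphatase inhibitors that promote mitotic entry had 6 of 6 genes above 0, with a median of 0.36. The polo kinase PLK1, which phosphorylates both CDC25C and WEE1, stood at 3.22-fold (log2 1.69, SE 0.67, limma adjusted p = 0.396), with 3.86, 0.20 and 1.00 in experiments 1, 2 and 3, and 1.52-fold from experiments 2 and 3. MELK stood at 1.35-fold without overlap between the groups, and ARPP19, an inhibitor of the phosphatase that opposes CDK1, at 1.21-fold. Checkpoint kinases, 14-3-3 proteins and CDK inhibitors had 7 of 12 genes above 0 and a median of 0.15. Members with the smallest p in that list were the 14-3-3 genes YWHAE, YWHAQ and YWHAH, whose proteins hold CDC25 phosphatases in the cytoplasm, at 1.30-fold, 1.30-fold and 1.33-fold, and from experiments 2 and 3 at 1.13-fold, 1.06-fold and 1.32-fold.

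Ubiquitin ligase genes that act on cyclins, CDC25A or WEE1 had 15 of 18 genes above 0 and a median of 0.28, with 3 at an unadjusted p under 0.05 and higher. UBE2C, the ubiquitin-conjugating enzyme of the anaphase-promoting complex, had 13240 ± 215 in siPTHrP cells and 8988 ± 941 in siLuc cells (SD, n = 3), with no overlap (log2 0.56, SE 0.16, limma adjusted p = 0.332). ANAPC15, a subunit of that complex, stood at 2.57-fold with 3.33, -0.090 and 0.85 in the 3 experiments (1.30-fold from experiments 2 and 3), and RBX1, a RING subunit of cullin ligases, at 1.47-fold. Transcription factors known to act on G2/M promoters had 4 of 13 tested genes above 0, with a median of -0.055. Over all 18 on the array, the dim ones included, 8 were above 0, with a median of -0.005. NFYC, a subunit of the CCAAT-binding factor NF-Y, stood at 0.659-fold with no overlap between the groups (2420 ± 245 in siPTHrP cells and 3699 ± 587 in siLuc cells, SD, n = 3; limma adjusted p = 0.393). Its partner NFYB stood at 0.704-fold, and E2F4, a repressor subunit of DREAM, at 0.753-fold. NFYA, the other NF-Y subunit, stood at 1.02-fold. FOXM1 and MYBL2, activators of these genes, stood at 0.994-fold and 1.02-fold. NFYA, FOXM1 and MYBL2 are named although the naming rule did not choose them.

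Of 5 general proliferation markers, TOP2A stood at 1.77-fold with no overlap (3791 ± 802 in siPTHrP cells and 2185 ± 689 in siLuc cells, SD, n = 3; limma adjusted p = 0.324). PCNA stood at 1.39-fold, with -0.59, 0.63 and 1.39 in experiments 1, 2 and 3, and 2.02-fold from experiments 2 and 3, and MCM2 at 1.10-fold. MKI67, named after its value was seen, stood at 1.03-fold, and the median of the 5 was 0.14. Other cyclins and CDKs (CCNA1, CCNE1, CCNE2, CCNF, CCNG1, CCNG2 and CDK2) had 2 of 7 genes above 0 and a median of -0.15. CCNG2 stood at 1.63-fold without overlap, CCNF at 0.631-fold and CCNE2, a cyclin of S phase entry, at 0.616-fold. The CCNF difference was -1.61, -0.37 and -0.015 in experiments 1, 2 and 3, and 0.876-fold from experiments 2 and 3. For CCNE2 it was -1.03, -1.12 and 0.055 in experiments 1, 2 and 3, with no common direction. Whether CDK1 and its cyclins differed from these lists was not tested.

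**Figure D5:**
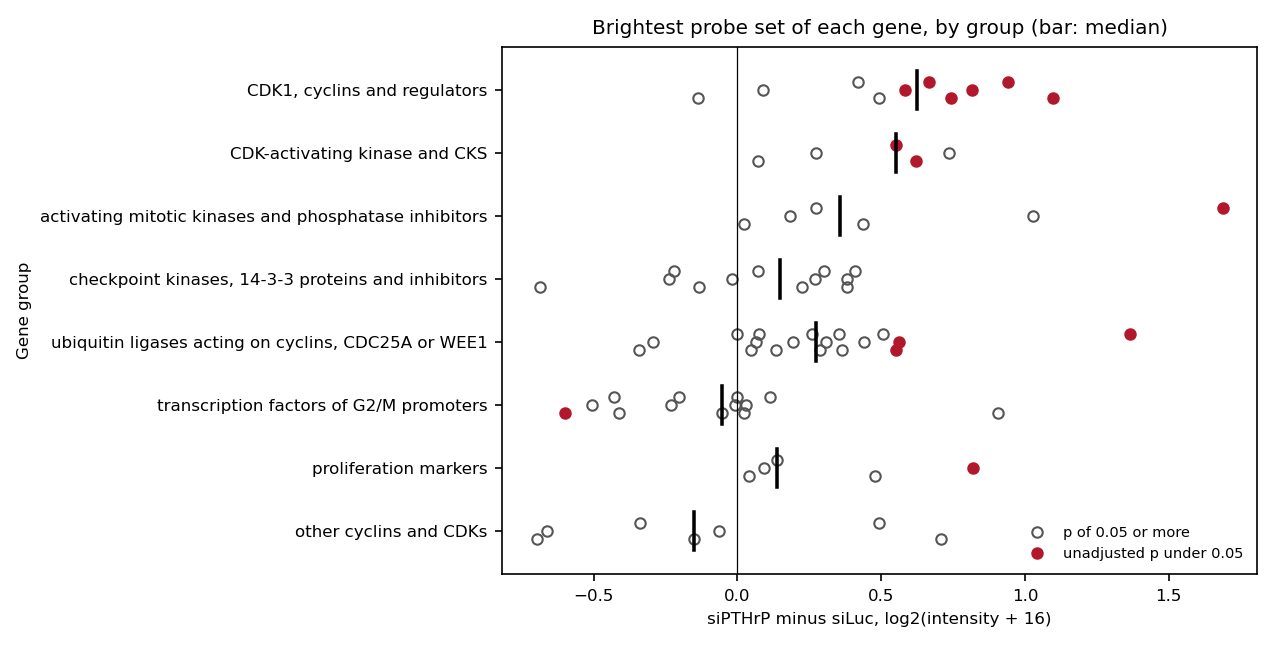
Difference between siPTHrP and siLuc, in log2(intensity + 16), of the brightest probe set of each tested gene, by gene group (points; red, unadjusted p under 0.05; black bar, median of the group). The top group, CDK1 with its cyclins and regulators, has a median of 0.62, and the transcription factors of G2/M promoters have a median of -0.055.

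The genes whose profile over the 6 arrays was most like that of CDK1 on 210559_s_at were found by the root-mean-square distance between profiles, each centred on its mean log2 signal. DUT, an enzyme that keeps uracil out of DNA, was nearest, with a distance of 0.057. It had 9053, 8710 and 7727 in siPTHrP cells and 5594.5, 6099 and 3773 in siLuc cells, the same order of arrays within siPTHrP and within siLuc as CDK1. NPTN, a cell adhesion protein, followed at 0.092, TSC22D1 at 0.099, TOM1L1 at 0.10 and AASDHPPT at 0.109. Of the other probe sets of the 10 genes, those nearest to this CDK1 profile were 203214_x_at of CDK1 itself (0.196), CDCA3 (0.219) and CDC25B (0.247), and 0.65%, 1.13% and 1.89% of tested probe sets lay nearer than these. CCNB1 followed at 0.265 and 203213_at of CDK1 at 0.279, with 2.49% and 2.98% nearer. CDC25C on 205167_s_at lay between these, at 0.268 with 2.61% nearer. CCNA2 lay at 0.356 on 203418_at and 0.389 on 213226_at, with 8.61% and 12.05% nearer. PKMYT1, which had no common direction, lay at 0.408 and CCNB2 at 0.422, with 14.43% and 16.39% nearer. WEE1 lay at 0.510 on 212533_at and 0.534 on 215711_s_at. CDC25A and the other CDC25C probe sets lay at 0.619 or more. All these profiles share the same 6 arrays and the same scaling.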

How the data were processed

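Biotin-labelled total RNA from RNeasy columns had been hybridised to 6 HG-U133A arrays, per the labels. The deposited values were linear signal intensities made by the authors with MAS5, per the submitters' processing notes. Which MAS5 version and settings were applied is not given in the sources used here. Trimmed means (2% off each end) were 1500.4 to 1500.6, and no further scaling was applied. Decimals occurred in 90.1% of probe sets on the siLuc array of experiment 1, whereas the other arrays held whole numbers.

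By elimination, the unnumbered siLuc sample was assigned to experiment 1, and where the title and description of a siLuc sample gave different numbers, the title was followed. Since the series' design text compares RNA pairs within an experiment, experiment was a block. As a check of the pairing, deviations from the group means correlated at -0.012, 0.157 and 0.157 within experiments 1, 2 and 3 and at -0.206 to 0.132 between different numbers. The highest of these, siPTHrP 1 with siLuc 2, exceeded the value within experiment 1, and the pairing rests on the design text and not on this check.

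R 4.3.3 and limma 3.58.1 were used. After removal of 68 controls, probe sets with a mean log2(intensity + 16) at or above the 40th percentile (8.614, a signal of 375.7) were kept, which left 13329. A model with siRNA and experiment was fitted across all probe sets with lmFit and eBayes (intensity trend); residual and prior degrees of freedom were 2 and 7.17. Two-sided p-values were adjusted over all kept probe sets (Benjamini-Hochberg, threshold 0.05). The steps were tested on simulated data. Names came from the array's annotation table: 19071 probe sets named 1 gene, 1043 several and 2169 none, and 19059 were updated through Entrez identifiers to RefSeq names (GRCh38.p14).

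All 10 genes and every probe set of theirs are described, with each array's signal. From each list of other genes, up to 3 genes with the smallest unadjusted p were named, plus the 5 genes nearest to CDK1 in profile. The genes and the lists were chosen with earlier results of these data known, so no list was tested. Alternatives were no block, other offsets, normalizations, filters and variance priors, array weights, fewer probe set kinds, and leaving out each experiment or the siLuc array of experiment 1.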

Additional observations from a re-analysis of the deposited data

How the results depend on the processing

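With no replicate block 8 of the 15 tested probe sets of CDK1, its cyclins and regulators still had an unadjusted p under 0.05 and higher signal, against 5.19% of all tested probe sets, and 0 of all probe sets were called, as in the paired analysis. These counts were also 8 (against 6.33%) and 0 when the unpaired fit dropped siLuc of experiment 1. The count of 8 was 5 with no intensity trend (3.45% of all) and 2 of 5 tested without _x_at and _s_at probe sets (6.7%), where the median of the remaining 5 was 0.94. It was 10 with array weights (8.96%), 9 with median centring (8.49%), 7 with offset 1 (6.7%) or a robust prior (6.62%), 7 of 12 with the 60th percentile filter (8.18%), and 8 with offset 64 (6.94%), quantile normalization (5.35%) or no filter (8 of 17, 4.43%). Leaving out 1 experiment gave 4 without experiment 2 (6.25%), 7 without experiment 3 (7.74%) and 8 without experiment 1 (6.72%), with medians between 0.553 and 0.665. The number of all probe sets called was 177 with array weights and between 38 and 175 when 1 experiment was left out (38 without experiment 1, 46 without experiment 2, 175 without experiment 3). These leave only 1 residual degree of freedom. Array weights called 2 CDK1 probe sets, 210559_s_at and 203213_at, the fit without experiment 3 called 203213_at and CCNB2, and that without experiment 1 called 203213_at. In the paired fit both arrays of an experiment had the same weight, 0.386, 2.23 and 1.16 in experiments 1, 2 and 3. The weights thus set experiment 1 as a whole lower, and not its siLuc array alone. Sign changes were few: CDC25A on 204696_s_at was at -0.085 with array weights, PKMYT1 at -0.22 without experiment 3, and CDC25C on 217010_s_at at 0.22 with array weights, 0.76 without experiment 1 and 0.53 in the unpaired fit lacking that siLuc array. When 1 experiment was left out, PKMYT1 lay between -0.22 and 0.26 and 217010_s_at between -1.23 and 0.76. The cause was not tested. CDK1, CCNB1, CCNB2, CCNA2, CDC25B, CDCA3 and 205167_s_at of CDC25C kept their direction in every alternative that tested them. The median over all probe sets moved from 0.030 to 0.11 with median centring, to 0.090 with quantile normalization and to -0.163 with no filter. MAS5 signals of dim probe sets are noisy, which limits CDC25A and 2 of the CDC25C probe sets.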
